A study of Mus musculus with 2 samples.

Results

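The enzymes described here carry glucose carbon through glycolysis, the pentose phosphate pathway and the tricarboxylic acid (TCA) cycle, together with the transporters that bring glucose in and pass lactate across the membrane. They were taken as the rows of the gene tables whose Ensembl identifier maps to a fixed list of mouse symbols, and 57 of the 43346 mouse genes in the tables were members. The rule used no measured value, but the list was chosen with earlier results of these data known. The study sequenced total RNA of the embryonic face (facial prominence) of B6NCrl mice on embryonic day 12.5, when the swellings that build the face grow and fuse. It held 1 group of 2 libraries and no contrast. Replicate 2 came from a pool of 88 healthy embryos and replicate 1 from a pool of 120, both of mixed sex, so neither embryo-to-embryo spread nor sex can be read from them. RNA above 200 nucleotides was kept, and 10 ng with synthetic ERCC spike-in RNAs went into each library. Summed expected counts, the estimated reads per gene, were 39969716 in replicate 2 and 27890681 in replicate 1.

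Glycolysis splits glucose into pyruvate in the cytosol with a small yield of ATP. Pyruvate is then reduced to lactate, which regenerates NAD, or enters the mitochondrion, where the pyruvate dehydrogenase complex turns it into acetyl-CoA for the TCA cycle. The pentose phosphate pathway branches off after the first step and makes NADPH and ribose for nucleotides, and growing embryonic and tumour cells are known for high glycolytic flux even where oxygen is present. Many steps of glycolysis, and some of the others, are served by several isozymes encoded by separate genes that differ in tissue, regulation and affinity.

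The label of the tissue was checked against markers. All 5 genes of facial mesenchyme were measured at 1 TPM (a level divided by transcript length and scaled to the same total in each library) or more in both libraries, with a summed level of 771 TPM in replicate 2 and 745 TPM in replicate 1. Of these genes 2, Alx1 (134 TPM in replicate 2 and 91.9 TPM in replicate 1) and Twist1, were higher in replicate 2. The 4 epithelial markers also all reached 1 TPM, while the 4 liver markers were low. Afp, which the embryonic liver and yolk sac make, had 129 counts (2.62 TPM) in replicate 2 and 88 counts (2.54 TPM) in replicate 1, Alb had 26 counts in replicate 2 and 11 in replicate 1, and Ahsg and Hnf4a had at most 2 counts in either library. The pools were not identical in their makeup. The 5 neuronal markers summed to 368 TPM (replicate 2) and 490.2 TPM (replicate 1), and the 5 erythroid markers to 9704 TPM (replicate 2) and 10566 TPM (replicate 1). Most of the erythroid sum was Hbb-y, with 7055 TPM in replicate 2 and 7730 TPM in replicate 1. Of the erythroid markers 2, Alas2 and Klf1, were higher in replicate 2, so this list was mixed in direction. The 5 skeletal muscle markers summed to 464 TPM (replicate 2) and 382 TPM (replicate 1), and the 3 lens markers to 416 TPM (replicate 2) and 177 TPM (replicate 1). In bulk RNA, fewer cells of a type and less RNA per cell cannot be told apart, and all levels below are averages over the cell types of the pool.

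By their median, the 57 listed genes were among the more abundant messenger RNAs of the tissue, which holds for this list and not for every gene of these pathways. Of the 57 genes, 54 reached 1 TPM in both libraries, against 61.8% of 21474 protein-coding genes. A level of 10 TPM in both was reached by 48 members, against 41.7% of protein-coding genes, and 100 TPM by 23 members, against 7.39%. The median of the members' mean TPM was 73.7, against 5.24 over all protein-coding genes and 21.3 over the 13275 of them that reached 1 TPM in both libraries. Together the members took 1.09 ± 0.00511% of all TPM and 1.13 ± 0.00124% of all expected counts (SD, n = 2, as for every mean below). Spike-ins, which are inside the TPM total, took 7.57% in replicate 2 and 6.88% in replicate 1. The 3 members under 1 TPM were Hk3, Pklr and Pdk4, and each is described with its family.

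**Figure D1:**
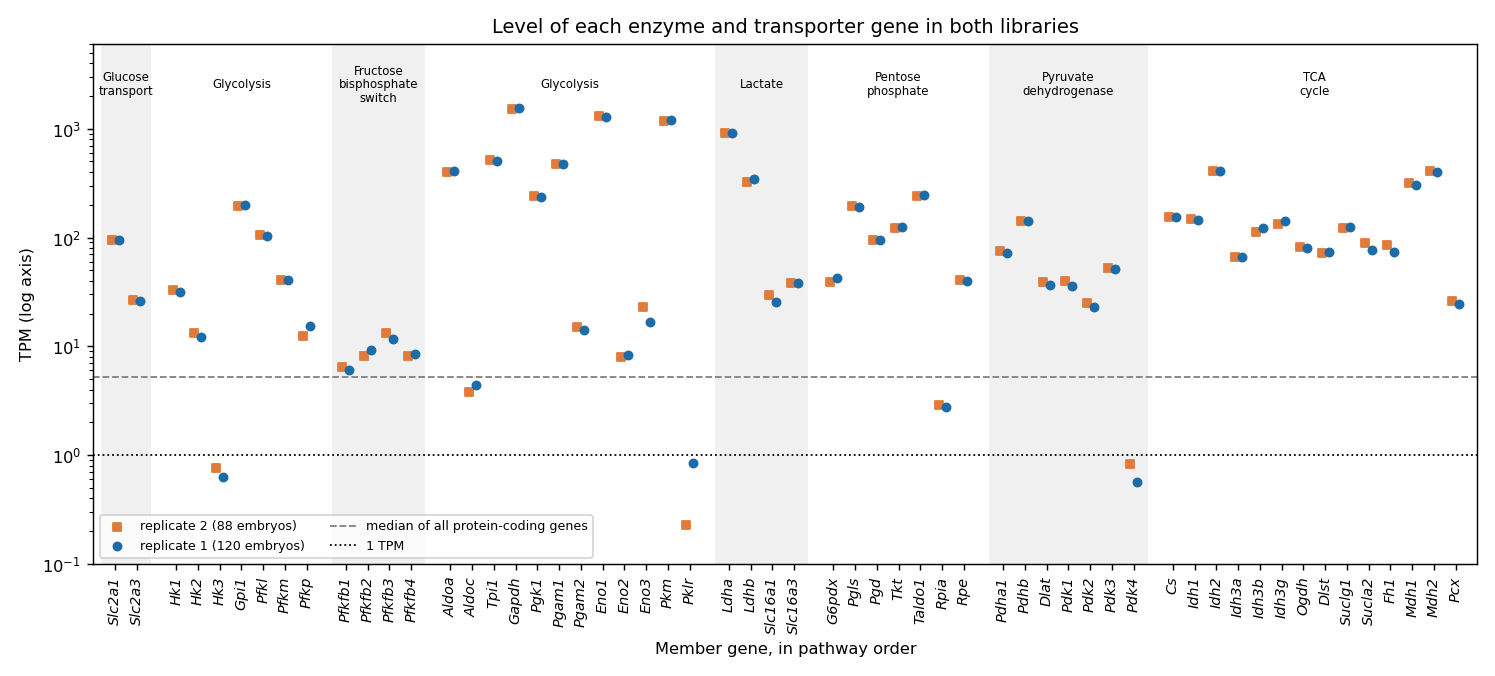
TPM of each of the 57 member genes on a log axis, in pathway order, with replicate 2 as squares and replicate 1 as circles, beside the median of all protein-coding genes (dashed) and 1 TPM (dotted). The 2 points of a gene nearly coincide for most members, Hk3, Pklr and Pdk4 lie under the dotted line, and the 14 genes grouped with the TCA cycle all lie above 10 TPM.

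Levels differed between the groups of the pathway. The 14 genes grouped with the TCA cycle, its feeder pyruvate carboxylase among them, had a median of 120 TPM, with a lowest mean of 25.3 and a highest of 411 TPM. The group also holds the cytosolic Idh1 (147 TPM) and Mdh1 (313 TPM) and the mitochondrial, NADP-dependent Idh2 (411 TPM), all above that median. The 19 genes of glycolysis proper had a lower median of 40.8 TPM but ran from 0.540 TPM to 1537 TPM, since the list holds both the main and the minor isozyme of a step. The 4 lactate genes had a median of 187 TPM, the 7 pentose phosphate genes 94.7 TPM, the 7 genes of the pyruvate dehydrogenase complex and its kinases 37.8 TPM, the pair of glucose transporters 60.7 TPM and the 4 PFKFB genes 8.51 TPM. By compartment, the 19 mitochondrial members had a median of 79.7 TPM and the 34 cytosolic members 67.7 TPM.

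Glucose entry was led by Slc2a1. Slc2a1 encodes GLUT1, the widespread transporter of growing and barrier tissues, and Slc2a3 encodes GLUT3, a high-affinity form best known from neurons. Slc2a3 had 26.9 TPM in replicate 2 and 26.0 TPM in replicate 1, against 95.4 TPM (replicate 2) and 94.4 TPM (replicate 1) for Slc2a1 (chr4:119108711-119137983, plus strand, GRCm38). The log2 ratio of Slc2a3 to Slc2a1 was -1.84 ± 0.024, a 3.59-fold lower level, and Slc2a3 held 21.8 ± 0.289% of the summed TPM of the pair. The summed level of the pair was 121 ± 1.34 TPM. Slc2a4, the insulin-responsive GLUT4, is not among the 57 genes and is named after its values were seen, because it stood above Slc2a3 in both libraries, with 29.7 TPM in replicate 2 and 28.2 TPM in replicate 1.

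Hexokinase, which traps glucose as glucose 6-phosphate, was the lowest of the glycolytic steps by summed level. Its 3 genes summed to 45.9 ± 1.93 TPM, and Hk1, the constitutive form bound to mitochondria, led them. Hk2, the inducible form of muscle and many tumours, had 13.2 TPM in replicate 2 and 12.3 TPM in replicate 1, against 33.3 TPM (replicate 2) and 31.6 TPM (replicate 1) for Hk1, a log2 ratio of -1.35 ± 0.027, or -2.13 over protein-coding transcripts alone. Hk3, a form of myeloid cells, had 52 counts and 0.770 TPM in replicate 2 and 28 counts and 0.630 TPM in replicate 1. Its exact 95% Poisson interval ran from 0.575 to 1.01 TPM in replicate 2 and from 0.419 to 0.911 TPM in replicate 1, which covers counting error only and treats each read as an independent molecule. The level of Hk3 was thus not distinguishable between the libraries at this depth, and it was 46.6-fold below Hk1 (log2 ratio -5.54 ± 0.15). That ratio was -7.14 over protein-coding transcripts alone and -4.85 in posterior mean TPM, so its size is uncertain. Beside this low level, all 5 macrophage markers were detected, with a summed level of 68.4 TPM in each library. Unc5a, on the opposite strand, shares 34 exonic bases with Hk3 and had more counts than it (123 in replicate 2 and 88 in replicate 1). The part of either in the Hk3 value was not tested.

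Gpi1, which interconverts the glucose and fructose phosphates, had 196 TPM in replicate 2 and 197 TPM in replicate 1. Phosphofructokinase, the committed and most regulated step of glycolysis, summed to 159 ± 0.948 TPM over 3 genes and was led by the liver-type subunit Pfkl. The muscle-type subunit Pfkm had 40.8 TPM in both libraries, against 105 TPM (replicate 2) and 104 TPM (replicate 1) for Pfkl (log2 ratio -1.36 ± 0.015). The platelet-type subunit Pfkp had 12.5 TPM in replicate 2 and 15.3 TPM in replicate 1 and lay 7.57-fold below Pfkl (log2 ratio -2.92 ± 0.22, or -3.79 over protein-coding transcripts alone). Pfkp is the least certain of the 3, because 748 of its exonic bases are shared with Pitrm1 on the opposite strand. Pitrm1 had 6679.8 counts in replicate 2 and 4683 in replicate 1, against 777 (replicate 2) and 656 (replicate 1) for Pfkp. Whether strand was kept in these libraries is not stated in the labels, so reads from the shared bases cannot be told apart.

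The PFKFB genes encode bifunctional enzymes that make and break fructose 2,6-bisphosphate, the strongest activator of phosphofructokinase. Pfkfb1 held 17.5 ± 0.750% of the family's TPM, Pfkfb2 24.4 ± 2.32%, Pfkfb4 23.3 ± 0.979% and Pfkfb3, the inducible form with the highest ratio of kinase to phosphatase activity, 34.8 ± 2.55%. None of the ratios to Pfkfb3 passed the threshold of 1 on the log2 scale that was used to call a ratio. Pfkfb1 came closest at -0.99 ± 0.044, Pfkfb4 stood at -0.58 ± 0.17 and Pfkfb2 at -0.52 ± 0.24. In protein-coding transcripts alone Pfkfb2 stood at -1.23, past the threshold. The highest value of any of the 4 genes in either library was 13.2 TPM. Pfkfb1 and Pfkfb2 share exonic bases with the opposite-strand genes Apex2 (123 bases) and Yod1 (154 bases), both of which had more counts than they did.

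The steps after phosphofructokinase were more abundant than those before it. Aldolase summed to 410.5 ± 3.92 TPM, triosephosphate isomerase to 509 ± 1.86 TPM, phosphoglycerate kinase to 238 ± 5.90 TPM and phosphoglycerate mutase to 484 ± 1.05 TPM. Enolase reached 1317 ± 34.3 TPM, pyruvate kinase 1189 ± 3.66 TPM and lactate dehydrogenase 1249 ± 11.1 TPM, while glyceraldehyde-3-phosphate dehydrogenase stood highest at 1537 ± 10.2 TPM. From aldolase to pyruvate kinase each multi-gene step rested almost wholly on a single gene. Aldoc, the brain form of aldolase, had 3.82 TPM in replicate 2 and 4.44 TPM in replicate 1, against 404 TPM (replicate 2) and 409 TPM (replicate 1) for Aldoa, a 98.7-fold lower level. Pgam2, the muscle form of the mutase, had 15.0 TPM in replicate 2 and 14.1 TPM in replicate 1, against 469 TPM in both for Pgam1, and was 32.3-fold lower. Tpi1, which has no isozyme here, had 511 TPM in replicate 2 and 508 TPM in replicate 1.

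**Figure D2:**
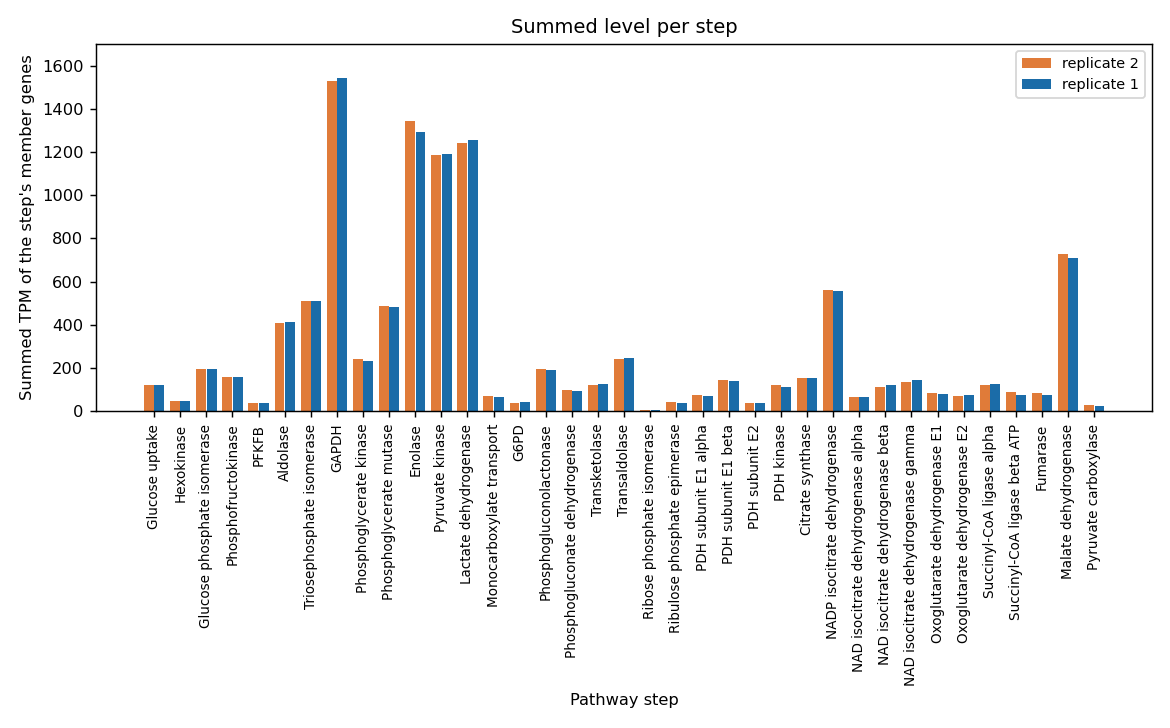
Summed TPM of the member genes of each step, on a linear axis from 0, with replicate 2 left of replicate 1. GAPDH, enolase, pyruvate kinase and lactate dehydrogenase stand between 1187 and 1544 TPM in both libraries, while hexokinase, phosphofructokinase and every pentose phosphate step lie under 250 TPM.

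Enolase makes phosphoenolpyruvate, and its 3 genes are the textbook markers of cell class. Eno2, the neuronal form, had 7.96 TPM in replicate 2 and 8.38 TPM in replicate 1. Eno3, the muscle form, had 22.8 TPM in replicate 2 and 16.6 TPM in replicate 1. Eno1, the general form (chr4:150236721-150248879, plus strand), had 1310.4 TPM in replicate 2 and 1268 TPM in replicate 1. Eno2 was 158-fold below Eno1 (log2 ratio -7.30 ± 0.086, or -8.33 over protein-coding transcripts alone) and Eno3 was 66.2-fold below it (-6.05 ± 0.29). Eno1 therefore held 97.9 ± 0.255% of the family, Eno3 1.49 ± 0.293% and Eno2 0.621 ± 0.0387%.

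**Figure D3:**
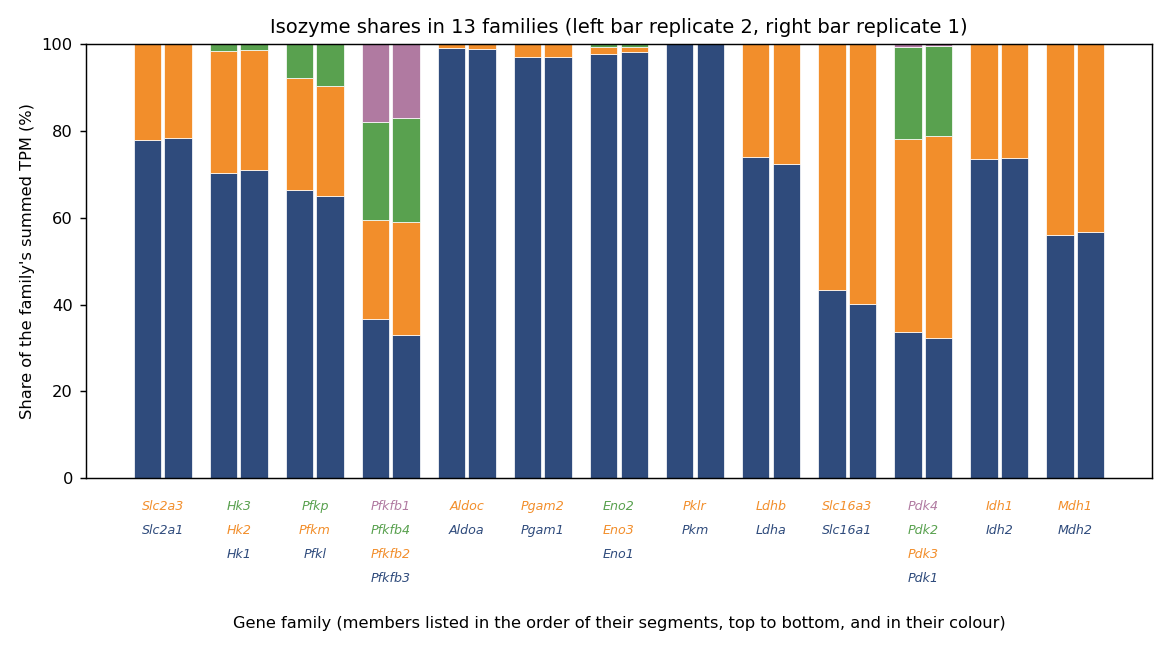
Share of each gene in the summed TPM of its family, stacked to 100%, for 13 families with the left bar for replicate 2 and the right bar for replicate 1. In aldolase, phosphoglycerate mutase, enolase and pyruvate kinase the lowest segment holds over 96% in both libraries, whereas the PFKFB, monocarboxylate transporter, pyruvate dehydrogenase kinase and malate dehydrogenase families are divided.

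Pyruvate kinase, which makes pyruvate and ATP, came from Pkm (chr9:59656368-59679375, plus strand), with 1186 TPM in replicate 2 and 1191 TPM in replicate 1. Pklr, the liver and red cell gene, had 15 counts and 0.230 TPM in replicate 2 and 16 counts and 0.850 TPM in replicate 1. These levels differ on near-equal counts. The effective length of Pklr was 2688 bases in replicate 2, where Pklr-201 was the top transcript, and 1087 bases in replicate 1, where Pklr-203 was. The opposite-strand gene Hcn3, which shares 711 exonic bases with Pklr, had 221 counts in replicate 2 and 188 in replicate 1. The log2 ratio of Pklr to Pkm was -12.33 in replicate 2 and -10.45 in replicate 1, so its size rests on which library is taken, and Pklr held under 0.1% of the family in both.

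Pkm makes both the M2 form, typical of embryonic and proliferating cells, and the M1 form, typical of adult muscle and brain, by including either exon 10 or exon 9. In the annotation these mutually exclusive exons are each 167 bases long and lie at chr9:59675568-59675734 (M2) and chr9:59675029-59675195 (M1) on the plus strand. Aligned without gaps, 103 of the 167 positions are identical and 64 differ (61.7% identity). The sequences are shown because the statements on the isoforms turn on which of these exons a transcript carries. They are from the GENCODE M21 transcripts of GRCm38, 5′ to 3′, and capitals mark the positions at which the exons differ:
M2 exon (exon 10): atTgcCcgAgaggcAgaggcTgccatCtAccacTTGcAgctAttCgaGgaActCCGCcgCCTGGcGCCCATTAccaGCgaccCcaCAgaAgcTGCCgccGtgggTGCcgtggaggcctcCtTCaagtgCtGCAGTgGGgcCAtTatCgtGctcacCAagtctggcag
M1 exon (exon 9): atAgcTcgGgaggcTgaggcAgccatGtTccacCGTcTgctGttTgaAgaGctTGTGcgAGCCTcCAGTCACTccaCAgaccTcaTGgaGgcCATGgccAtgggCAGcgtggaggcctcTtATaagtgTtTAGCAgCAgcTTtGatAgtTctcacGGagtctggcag

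The M2 form dominated. Pkm-201, which carries exon 10, had 1134 TPM (65554 expected counts) in replicate 2 and 1129 TPM (46005 counts) in replicate 1, and Pkm-202, which carries exon 9, had 52.7 TPM (3044 counts) in replicate 2 and 62.3 TPM (2538 counts) in replicate 1. M2 was thus 95.6% of both forms in replicate 2 and 94.8% in replicate 1, a mean of 95.2 ± 0.560%. The ratio of M2 to M1 was 21.5 in replicate 2 and 18.1 in replicate 1. The uncertainty of assigning reads between the transcripts, as deposited, was 137 counts in replicate 2 and 130 counts in replicate 1, small against either isoform. Both transcripts were 2432 bases long as deposited. In M21, from which the exons were read, Pkm-201 has the same length but Pkm-202 has 2041 bases. The M1 share of 4.44% in replicate 2 and 5.23% in replicate 1 was lower in the library with less neuronal and more skeletal muscle marker RNA. The 5 neuronal markers summed to 368 TPM (replicate 2) and 490.2 TPM (replicate 1) and the 5 muscle markers to 464 TPM (replicate 2) and 382 TPM (replicate 1), with none at 0. Their part in the M1 level was not tested, and with 1 library a pool the difference has no replicate check.

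Lactate dehydrogenase was carried by both of its subunit genes. Ldhb, the heart-type subunit, had 322 TPM in replicate 2 and 347 TPM in replicate 1, against 919 TPM (replicate 2) and 909.8 TPM (replicate 1) for Ldha, the muscle-type subunit that favours lactate formation (chr7:46841475-46855627, plus strand). The log2 ratio was -1.45 ± 0.087, and Ldhb held 26.8 ± 1.18% of the sum. Of the lactate transporters, Slc16a3 (MCT4, an exporter of glycolytic cells) had 38.5 TPM in replicate 2 and 38.1 TPM in replicate 1, against 29.5 TPM (replicate 2) and 25.5 TPM (replicate 1) for Slc16a1 (MCT1, of broad distribution). Their log2 ratio of 0.48 ± 0.14 was not called, and it turned to -0.60 in counts not divided by length, since the messenger of Slc16a1 is longer.

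Gapdh was the highest member by TPM, but its rank depended on a short transcript. The gene (chr6:125161715-125166467, minus strand) had 1529.6 TPM in replicate 2 and 1544 TPM in replicate 1. Gapdh-208, annotated as a processed transcript without a coding frame, received 953.7 TPM in replicate 2 and 933.9 TPM in replicate 1, that is 62.4% (replicate 2) and 60.5% (replicate 1) of the gene's TPM from 32.7% (replicate 2) and 31.1% (replicate 1) of its counts. It is 483 bases long, and all 483 lie within the exons of the coding transcript Gapdh-203, which is 1420 bases long. Over protein-coding transcripts alone Gapdh had 559.5 TPM in replicate 2 and 595 TPM in replicate 1 and came after Eno1, Pkm and Ldha, in 4th place among the members. Eno1 had 1247 ± 33.7 TPM on that scale and Pkm 1189 ± 3.22 TPM.

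Other members also had much of their TPM in noncoding transcripts. They took 30% or more of the TPM in both libraries in 10 genes (Hk2, Hk3, Pfkp, Pfkfb2, Gapdh, Eno2, Rpia, Pdk1, Idh3g and Mdh2) and under 10% in 39. These shares were not computed over all protein-coding genes, so the counts cannot be read as particular to the members. In Hk2, a 594-base processed transcript held 43.0% of TPM in replicate 2 and 42.0% in replicate 1 from 6.34% of the counts on average. In Pdk1, noncoding transcripts held 64.5% in replicate 2 and 63.7% in replicate 1, a larger share than in Gapdh, and protein-coding transcripts accounted for 13.6 ± 0.870 TPM of a gene level of 37.8 ± 3.03 TPM. Over coding transcripts the median of the members was 72.6 TPM, close to that over all transcripts. A median does not register a fall in genes that stay on the same side of it, so it does not show how widely the effect spread.

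**Figure D4:**
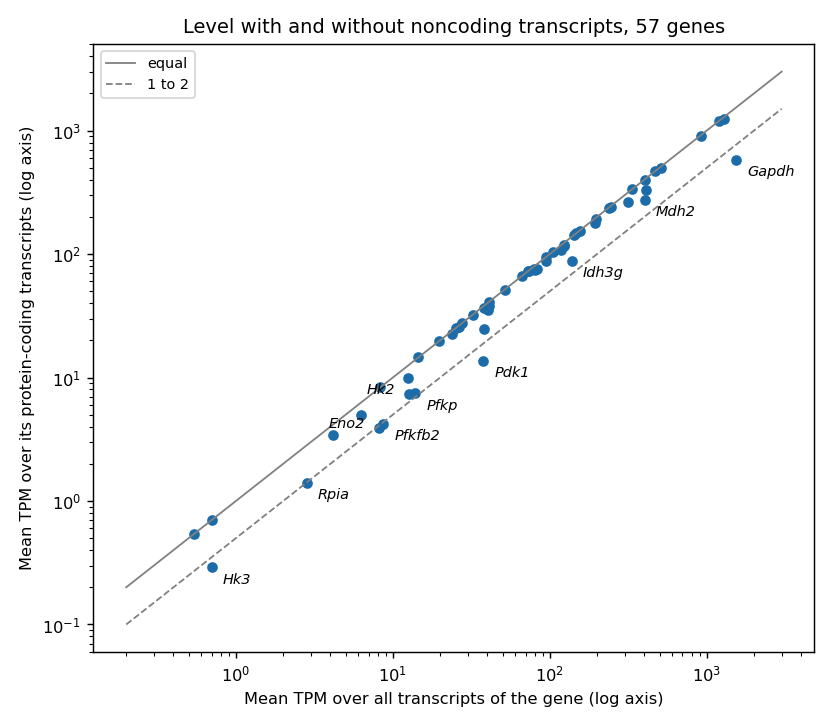
Mean TPM over protein-coding transcripts against mean TPM over all transcripts of each member gene, both on log axes, with lines at equality and at 1 to 2. Most of the 57 points lie on the line of equality, and the 10 named genes, Gapdh and Pdk1 among them, lie below it.

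Of the 331 annotated transcripts of the members, few carried most of the signal. The most abundant transcript was the same in both libraries for 53 of 57 members, against 93.2% of 13275 protein-coding genes at 1 TPM or more, a share near the background. The exceptions were Hk3, Pfkp, Pklr and Rpia. A single transcript held 90% or more of the gene's TPM in both libraries for 27 members, while the top transcript stayed under 50% in both for Pfkp, Pfkfb2, Pfkfb3, Eno2 and Pdk1. For these shares no background over all protein-coding genes was computed. For Eno2 the top transcript was a retained intron form, Eno2-203, with 43.2% in replicate 2 and 25.4% in replicate 1. Mdh2 divided between the coding Mdh2-201 (66.9% of TPM in replicate 2 and 69.7% in replicate 1) and Mdh2-203 (30.9% in replicate 2 and 27.7% in replicate 1), which is annotated as a target of nonsense-mediated decay.

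The oxidative branch of the pentose phosphate pathway makes NADPH through 3 enzymes, and they were unequal. G6pdx, the rate-limiting dehydrogenase, had 39.1 TPM in replicate 2 and 42.3 TPM in replicate 1, Pgls, the lactonase, had 194 TPM (replicate 2) and 191 TPM (replicate 1), and Pgd, the second dehydrogenase, had 95.4 TPM (replicate 2) and 94.0 TPM (replicate 1). G6pdx shares 418 exonic bases with Ikbkg on the opposite strand, which had 1739 counts in replicate 2 and 1191 in replicate 1, against 2344 (replicate 2) and 1670 (replicate 1) for G6pdx. In the non-oxidative branch, which rearranges sugars towards ribose 5-phosphate or back to glycolysis, Tkt stood at 124 ± 1.76 TPM and Taldo1 at 244 ± 1.70 TPM. Rpe, the epimerase, had 40.3 ± 1.12 TPM and shares 558 exonic bases with the opposite-strand gene Kansl1l. Rpia, the isomerase that yields ribose 5-phosphate, was the lowest of the 7 genes, with 2.88 TPM (183 counts) in replicate 2 and 2.79 TPM (122 counts) in replicate 1. A retained intron form and the coding form of Rpia had near-equal TPM, and their order changed between the libraries.

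Oxidation of pyruvate in the mitochondrion was represented among the members by Pdha1, Pdhb and Dlat of the pyruvate dehydrogenase complex and by its kinases. Pdha1, the E1 alpha subunit on the X chromosome, had 75.4 TPM in replicate 2 and 71.9 TPM in replicate 1, against 143 TPM (replicate 2) and 141 TPM (replicate 1) for Pdhb, the E1 beta subunit with which it assembles in equal number. Their log2 ratio was -0.95 ± 0.034, just under the threshold in size, and it was 0.021 in counts not divided by length. Dlat, the E2 core, stood at 37.8 ± 1.57 TPM. The pyruvate dehydrogenase kinases switch the complex off. Pdk2 had 25.1 TPM in replicate 2 and 22.8 TPM in replicate 1, and Pdk3 had 53.0 TPM (replicate 2) and 51.0 TPM (replicate 1). Pdk4 had 0.830 TPM (70 counts) in replicate 2 and 0.570 TPM (34 counts) in replicate 1. Pdk1, a target of hypoxia signalling, had 39.9 TPM in replicate 2 and 35.7 TPM in replicate 1. Pdk4, the kinase induced by fasting and fatty acids, was 54.9-fold below Pdk1 (log2 ratio -5.78 ± 0.27). Neither Pdk3 (0.46 ± 0.077) nor Pdk2 (-0.66 ± 0.019) passed the log2 threshold against Pdk1. All of these ratios depended on the transcripts counted: over protein-coding transcripts alone, Pdk3 stood at 1.92 and Pdk2 at 0.73, above Pdk1, and Pdk4 at -4.30. In counts not divided by length, Pdk2 stood at -1.24 against Pdk1, past the threshold.

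The genes grouped with the TCA cycle were all well above the floor, with Pcx lowest and Idh2 highest. Citrate synthase (Cs), which admits acetyl-CoA, had 155 TPM in both libraries. Of the NAD-dependent isocitrate dehydrogenase, the catalytic subunit Idh3a had 66.1 ± 0.665 TPM and the regulatory subunits Idh3b and Idh3g had 117 ± 5.92 TPM and 138 ± 6.92 TPM. Idh3g over Idh3a was called at 1.06 ± 0.087 on the log2 scale, and Idh3b over Idh3a was not, at 0.83 ± 0.087. The Idh3g call ended at 0.42 in protein-coding transcripts and at 0.041 in counts not divided by length. Ogdh and Dlst, the E1 and E2 parts of the oxoglutarate dehydrogenase complex, stood at 80.9 ± 1.94 and 72.6 ± 1.03 TPM. Sucla2, the ATP-forming beta subunit of succinyl-CoA ligase, had 88.4 TPM in replicate 2 and 76.4 TPM in replicate 1, against 122 TPM (replicate 2) and 124 TPM (replicate 1) for its partner Suclg1 (log2 ratio -0.58 ± 0.17, not called). Fh1, fumarase, had 85.1 TPM in replicate 2 and 74.4 TPM in replicate 1. Pcx, which refills oxaloacetate from pyruvate, was the lowest of the set at 25.3 ± 1.10 TPM.

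Enzymes that exist in a cytosolic and a mitochondrial form were both well represented. Idh1, the cytosolic NADP-dependent isocitrate dehydrogenase, had 149 TPM in replicate 2 and 145 TPM in replicate 1, against 411 TPM (replicate 2) and 410.4 TPM (replicate 1) for the mitochondrial Idh2. The log2 ratio of -1.48 ± 0.021 was called, although it was -0.93 in counts not divided by length. Mdh1, the cytosolic malate dehydrogenase of the malate-aspartate shuttle, had 319 TPM in replicate 2 and 307 TPM in replicate 1, against 408 TPM (replicate 2) and 401 TPM (replicate 1) for the mitochondrial Mdh2, a log2 ratio of -0.37 ± 0.024 that was not called.

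Over all 24 ratios, 14 were called. Of the 20 isozyme ratios, 13 were called, all with the first gene of the ratio lower than the second. Which gene came second was chosen when the pairs were written, so the shared direction is not a result in itself. Of the 4 ratios between subunits that work together, 1 was called. The coding sequences of isozymes were not near-identical. Between their longest coding sequences the identity over aligned bases was 55.9% at the lowest (Mdh1 and Mdh2), 70.3% at the median and 76.7% at the highest (Eno3 and Eno1), and no pair reached 95%.

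Copies elsewhere in the genome are another source of doubt for the abundant enzymes. Near-identical transcripts, at 95% identity or more over 80% or more of the shorter sequence, were annotated for 10 members and include many processed pseudogenes, and 7 of these members had a copy that was measured. Those copies held 1.03 ± 0.00951% of the counts of all members and copies together. The share was 9.93 ± 0.604% for Pgk1, through Pgk1-rs7, and 6.42 ± 0.299% for Gapdh, which had 76 such copies, 71 of them measured. It was 2.07 ± 0.217% for Pgam1 and 1.85 ± 0.126% for Eno1, whose copies include the coding gene Eno1b. The deposited uncertainty of read assignment was smaller than these shares, at 1.39% of the counts of Pgk1 in replicate 2 and 1.76% in replicate 1, and at 0.365% (replicate 2) and 0.419% (replicate 1) for Gapdh. Whether reads given to a copy came from the gene itself was not tested.

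The pools gave nearly the same values for the pathway, as they did for most protein-coding genes at these levels. Among members with a mean of 10 TPM or more, 1 of 48 differed by more than 0.32 in log2(TPM + 1) between replicate 2 and replicate 1, against 2.88% of 9111 protein-coding genes. It was higher in replicate 2, against 1.1% of genes that were higher there, and 0 members were lower by as much, against 1.78% of genes. None differed by more than 1, against 0.121% of genes. The median size of the difference was 0.0479 over the members, against 0.0675 over the protein-coding genes. The size was under 0.1 for 72.9% of these members and for 66.4% of the protein-coding genes.

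Eno3 was the exception, at 22.8 TPM (664 counts) in replicate 2 and 16.6 TPM (375 counts) in replicate 1, a log2 difference of 0.43. The 5 skeletal muscle markers were all higher in replicate 2 as well, with a summed level of 464 TPM there and 382 TPM in replicate 1, and none was at 0, although Ckm had 11 counts in replicate 2 and 1 in replicate 1. Their part in the difference was not tested. Other members given above as muscle forms or types differed less. Their log2 differences were 0.10 for Hk2, 0.09 for Pgam2, 0.015 for Ldha and 0 for Pfkm. The difference of Eno3 was 0.3197 in posterior mean TPM, 0.29 in counts scaled by library size and 0.30 with TMM factors, each higher in replicate 2 and under the threshold of 0.32, and its effective length was 1175 bases in replicate 2 and 1293 bases in replicate 1. The next members by size were Pfkp, lower in replicate 2 by 0.28 on the log2 scale, and Sucla2, higher by 0.21. With a single library a pool, no such difference has a replicate check.

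**Figure D5:**
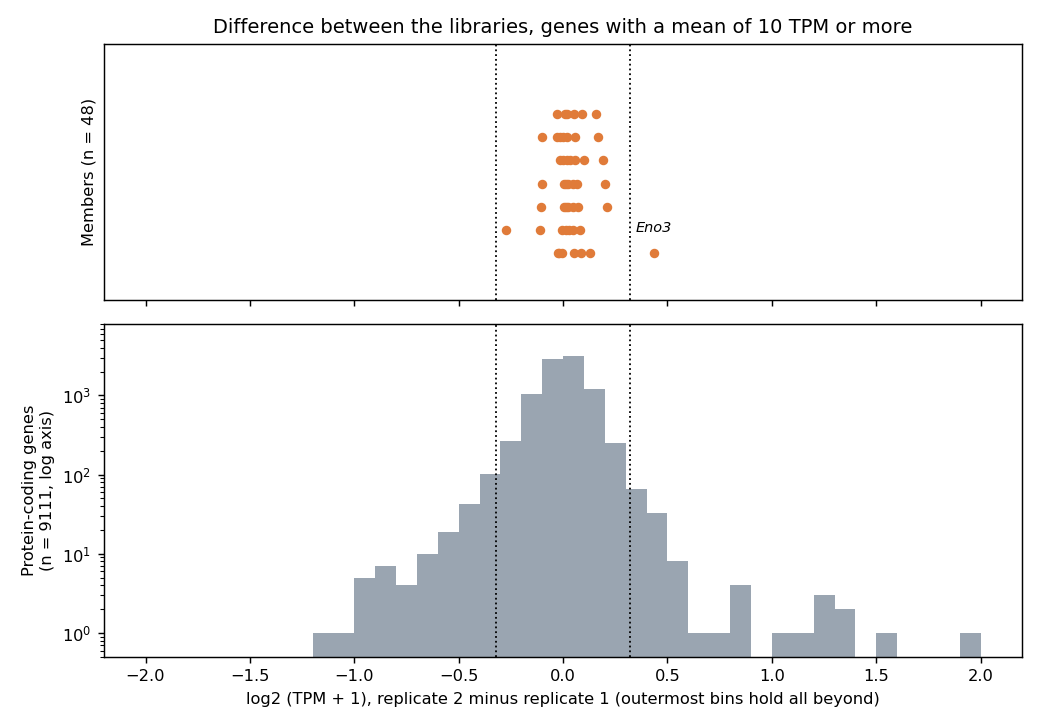
Difference in log2(TPM + 1), replicate 2 minus replicate 1, for the 48 members with a mean of 10 TPM or more (upper panel, points, vertical position without meaning) and for 9111 protein-coding genes (lower panel, histogram with a log count axis). The dotted lines mark 0.32 in either direction, and Eno3 at 0.43 is the single member outside them.

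Other genes of the same pathways, and their regulators, were read from lists of 63 genes. Of these, 48 reached 1 TPM in both libraries, against 61.8% of 21474 protein-coding genes. A mean of at least 10 TPM was reached by 36, against 9111 of the 21474. The median of the 63 was 13.8 TPM, against 73.7 TPM for the members and 5.24 TPM over all protein-coding genes. The share of 61.8% is also the background for the counts at 1 TPM in each list below. Among 19 further transport and glycolysis genes, 10 reached 1 TPM. Bsg, the chaperone that brings the lactate transporters to the membrane, had 571 ± 0.849 TPM, and the mitochondrial pyruvate carrier genes Mpc2 and Mpc1 had 112 ± 4.10 and 104 ± 4.39 TPM. The lowest of the list were at the floor. Ldhc, the testis lactate dehydrogenase, had 1 count in replicate 2 and 0 in replicate 1, and Pgk2, the testis phosphoglycerate kinase, had 0 counts in both. At an effective length of 1000 bases, a count of 0 allows a level of up to 0.121 TPM in replicate 2 and of up to 0.172 TPM in replicate 1, from counting error only.

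Genes that run glycolysis backwards were mostly low. Of 6 gluconeogenic genes, 2 reached 1 TPM in both libraries, G6pc3, a widely expressed phosphatase, at 25.5 ± 0.665 TPM and the mitochondrial Pck2 at 17.0 ± 0.163 TPM. The fructose bisphosphatases Fbp1 (0.315 ± 0.205 TPM) and Fbp2 (0.215 ± 0.0212 TPM) and the cytosolic Pck1 (0.0550 ± 0.0495 TPM) were near the floor, and G6pc, the glucose-releasing phosphatase of liver, had 0 counts. Of 5 further pentose phosphate genes, H6pd, the dehydrogenase of the endoplasmic reticulum (6.55 ± 0.566 TPM), Tigar, a sugar phosphatase (2.25 ± 0.0849 TPM), and Shpk, the sedoheptulose kinase (1.69 ± 0.0566 TPM), reached 1 TPM, while Tktl1 had 4 counts in replicate 2 and 2 in replicate 1 and Tktl2 had 0 in both.

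All 17 other genes of the pyruvate dehydrogenase complex and the TCA cycle reached 1 TPM, and 16 averaged at least 10 TPM. The succinate dehydrogenase subunits Sdhb (322 ± 3.37 TPM), Sdhd (194 ± 3.42 TPM) and Sdha (194 ± 2.43 TPM) were highest. Me1 (13.7 ± 1.42 TPM) and Me3 (1.67 ± 0.339 TPM), which are malic enzymes, and Pdpr (11.1 ± 0.898 TPM), a regulator of the pyruvate dehydrogenase phosphatase, were lowest. All 16 regulators also reached 1 TPM. Hif1a, the oxygen-regulated subunit of the hypoxia factor, led them at 99.3 ± 1.12 TPM, followed by Egln2, an oxygen-sensing prolyl hydroxylase, at 80.8 ± 2.62 TPM and Mycn, a growth-promoting factor of the MYC family, at 60.3 ± 0.771 TPM. Mlxipl, the glucose-responsive factor of liver (2.67 ± 0.0283 TPM), Epas1, another oxygen-regulated factor (2.30 ± 0.170 TPM) and Prkaa2, a catalytic subunit of AMP kinase (1.39 ± 0.170 TPM), were lowest. An abundant messenger for Hif1a says nothing of the protein, whose amount is set by its breakdown.

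Members were spread over 17 chromosomes, with 9 on chromosome 6 and 6 on the X chromosome (Pfkfb1, Pgk1, G6pdx, Pdha1, Pdk3 and Idh3g). The closest members were Eno2 and Tpi1 on the minus strand of chromosome 6, separated by 40912 bases. Eno2 was at 8.17 ± 0.297 TPM and Tpi1 at 509 ± 1.86 TPM. Gapdh lies 347418 bases from Tpi1 on the same strand. Promoter windows of the RefSeq table (GRCm38.p6), from 250 bases before to 50 bases after a start, matched 55 of the 57 genes by symbol. The core letters ACGTG or GCGTG of the hypoxia response element were present on either strand in a window of 44 of these 55 genes (80%), of 53.8% of 16317 protein-coding genes and of 46.7% of 27025 genes in the table. Members had more windows per gene, and counted by window the motif was in 60 of 83 member windows (72.3%), against 50.6% of 19931 windows of protein-coding genes. The letters ACGTG also lie inside the motif CACGTG, the E-box that MYC binds. The member windows were richer in G and C, with a median of 60.3% and 20 CG pairs, against 57% and 14 for protein-coding genes, so base composition moved with the share and its part was not tested. A match is a description of the letters and not of binding.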

How the data were processed

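The deposited gene and transcript tables gave, per the file headers, expected counts (estimated reads, shared among matching transcripts), TPM and FPKM values and posterior means and SDs for each library. The authors aligned reads to mm10 with GENCODE M4, per the deposited notes. The aligner was not given in the sources used here, nor were the quantifier and the use of strand. Names and coordinates (1-based) came from GENCODE M21 on the same build (GRCm38). Of the 331 transcripts of the members, 18 had a deposited length other than that in M21. Of the symbols, 57 of 57 matched 1 identifier each.

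The members and the gene lists were chosen with earlier results of these data known. Every member is named, and of the other pathway genes the highest and lowest 3 of each list, except 1 gene that is not reported here. Levels are TPM as deposited, with SD over n = 2. The replicates are separate pools of embryos, and no p-value was computed, since there is no contrast. A ratio was called when both libraries gave it the same sign and its mean log2 was beyond 1 or -1. Copies were found with BLAST 2.17.0, TMM factors with edgeR 4.0.16 on expected counts rounded to whole numbers, and the rest was done in Python 3.11.15 with Biopython 1.88. The step that compares the libraries was tested on simulated data.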

Additional observations from a re-analysis of the deposited data

How the results depend on the processing

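Counted in both libraries, 54 or 55 members reached 1 TPM under every alternative run at that threshold, and 52 members reached 5 TPM. The M2 share of Pkm stayed between 94.8 and 95.6% and the number with the same top transcript between 51 and 55. The median of 73.7 was 72.1 in posterior mean TPM, 45.9 in FPKM, which is another scale, and 79.4 without spike-ins in the total, and lay between 73.3 and 75.4 with either library left out. Ratios called numbered 14 to 15, or 9 at a threshold of 1.5, but the called pairs were not always the same. In counts not divided by length, Idh1 over Idh2 (-0.93) and Idh3g over Idh3a (0.041) were lost. Pfkfb1 over Pfkfb3 (-2.15) and Pdk2 over Pdk1 (-1.24) were gained there. In protein-coding transcripts, Idh3g over Idh3a (0.42) was lost, and Pfkfb2 over Pfkfb3 (-1.23) and Pdk3 over Pdk1 (1.92) were gained. Signs turned for Slc16a3 over Slc16a1 (-0.60), Pdk3 over Pdk1 (-0.15) and Pdha1 over Pdhb (0.021) in counts not divided by length, and for Pdk2 over Pdk1 (0.73) in protein-coding transcripts. The first scale gives long messengers more weight and the second leaves out noncoding transcripts, by construction. Counts not divided by length also moved the log2 ratios of Pfkfb1 to Pfkfb3 (-2.15), Pgam2 to Pgam1 (-6.24), Eno3 to Eno1 (-6.66) and Idh3b to Idh3a (0.16) by over 1.5-fold. Posterior mean TPM gave -10.01 for Pklr over Pkm, and a pseudocount of 1 TPM gave -9.62 for it, -4.30 for Hk3 over Hk1 and -4.51 for Pdk4 over Pdk1. Over the 24 ratios, FPKM and a pseudocount of 1 TPM changed no call. Pfkfb1 over Pfkfb3, at -0.99, passed the threshold in posterior mean TPM, in counts not divided by length and without replicate 1. The single member that differed between the libraries became 0 in posterior mean TPM, and in counts scaled by library size, with or without TMM factors. Near-identical copies held 0.952% of counts at an identity of 98%, a setting chosen after seeing the data, as was the use of protein-coding transcripts for the median and the ratios. The planned protein identity of isozymes was not run, and coding-sequence identity was used in its place. No paired analysis was possible because the series has 1 group. With 2 libraries, depth limits the genes with under 100 counts in a library (Hk3, Pklr and Pdk4).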
